A study of Mus musculus with 29 samples.

Results

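Cholesterol synthesis and transport genes were followed in prefrontal cortex of mice that carry the K228E allele of Tbr1 and of wild-type mice, with fluoxetine, lithium or vehicle. The 30 genes were chosen by function, as genes of sterol synthesis, its regulation, sterol storage and sterol efflux, by a rule that uses no measured value, although earlier results of these data were known when they were chosen. All 30 were found in the deposited table of 18240 genes. They comprise 8 genes of the mevalonate branch, 11 of the sterol branch, 5 regulators, 2 genes of sterol esterification and transfer inside the cell, and 4 genes of efflux and sterol carriage. None of the 30 passed the test in any of 9 comparisons of genotype, drug and sex, where 0% to 1.9% of all genes passed. The synthesis genes varied together from library to library.

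The data were bulk RNA sequencing of prefrontal cortex at postnatal day 40 from C57BL/6J mice of both sexes. Wild-type mice (WT) received vehicle (8 libraries, 4 female and 4 male). Heterozygous Tbr1+/K228E mice (HT) received vehicle (6 libraries, 3 female and 3 male), fluoxetine, a serotonin reuptake inhibitor (8 libraries, 4 female and 4 male), or lithium, a mood stabiliser (7 libraries, 3 female and 4 male). All WT libraries analysed here had vehicle, so a drug effect in WT was not measured. Dose, route and length of treatment are not in the labels, which put all libraries in 1 batch and do not say that each came from a separate animal. P-values therefore measure the spread between these libraries.

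The brain makes nearly all of its own cholesterol, because plasma lipoproteins do not cross the blood-brain barrier. Acetyl-CoA units are built into mevalonate and isoprenoids, squalene is formed and cyclised, and the product is trimmed to cholesterol in the endoplasmic reticulum. When sterol falls there, SCAP escorts SREBP proteins to the Golgi for activation and the synthesis genes are transcribed, while INSIG proteins hold SCAP back when sterol is abundant. Oligodendrocytes use cholesterol for myelin, and astrocytes pass it to neurons on ApoE particles loaded by ABC transporters.

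Tbr1, the gene that carries the allele and encodes a transcription factor of deep-layer cortical neurons, was read first. Its normalised read count was 2866 ± 445 (SD, n = 8) in WT vehicle, 4067 ± 392 (n = 6) in HT vehicle, 4159 ± 590 (n = 8) in HT fluoxetine and 4425 ± 321 (n = 7) in HT lithium. The allele changes an amino acid, so its RNA level is no direct check of the genotype labels. Of the 21 HT libraries, HT fluoxetine female 1 alone lay within the WT range, at 2858. Values are read counts divided by 1 size factor per library, and reads over the genes of the table totalled 22.81 M to 31.71 M per library. None of the marker genes tested for cortical excitatory neurons, glia, vessels, meninges, striatum or olfactory areas was at 0 in every library, but the last 2 lists varied widely. Olfactory markers had means from -3.05 to 1.94 and striatal markers from -0.77 to 2.14 (log2, centred on all libraries). The cortical excitatory neuron mean was lowest in 3 libraries: WT vehicle male 3 at -0.44, WT vehicle male 1 at -0.30 and HT fluoxetine female 1 at -0.30. In bulk tissue, fewer cells of a type and less RNA per cell cannot be told apart.

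All 30 genes were expressed in every library. Per kilobase of exon, the median level over the 29 libraries was highest for Apoe, the main apolipoprotein of the brain, at 14754 normalised reads per kb. Hmgcs1, which makes HMG-CoA, followed at 1675, then Srebf2, the SREBP of the sterol genes, at 937 and Insig1 at 593. Lowest were Lbr, a nuclear envelope protein with sterol C14 reductase activity, at 59.9, Soat1, which esterifies cholesterol, at 84.2, Lss, which cyclises squalene epoxide, at 118, and Abca1, which loads lipid onto apolipoproteins, at 120. This order depends on the length used, that of all annotated exons merged. It was longest for Lss, at 10787 bases, whose median count was 1270. Levels of a gene differed little from library to library. The highest library exceeded the lowest by 1.21 times for Pmvk (phosphomevalonate kinase) and by 1.95 times for Abca1, with the other 28 genes between them.

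**Figure D1:**
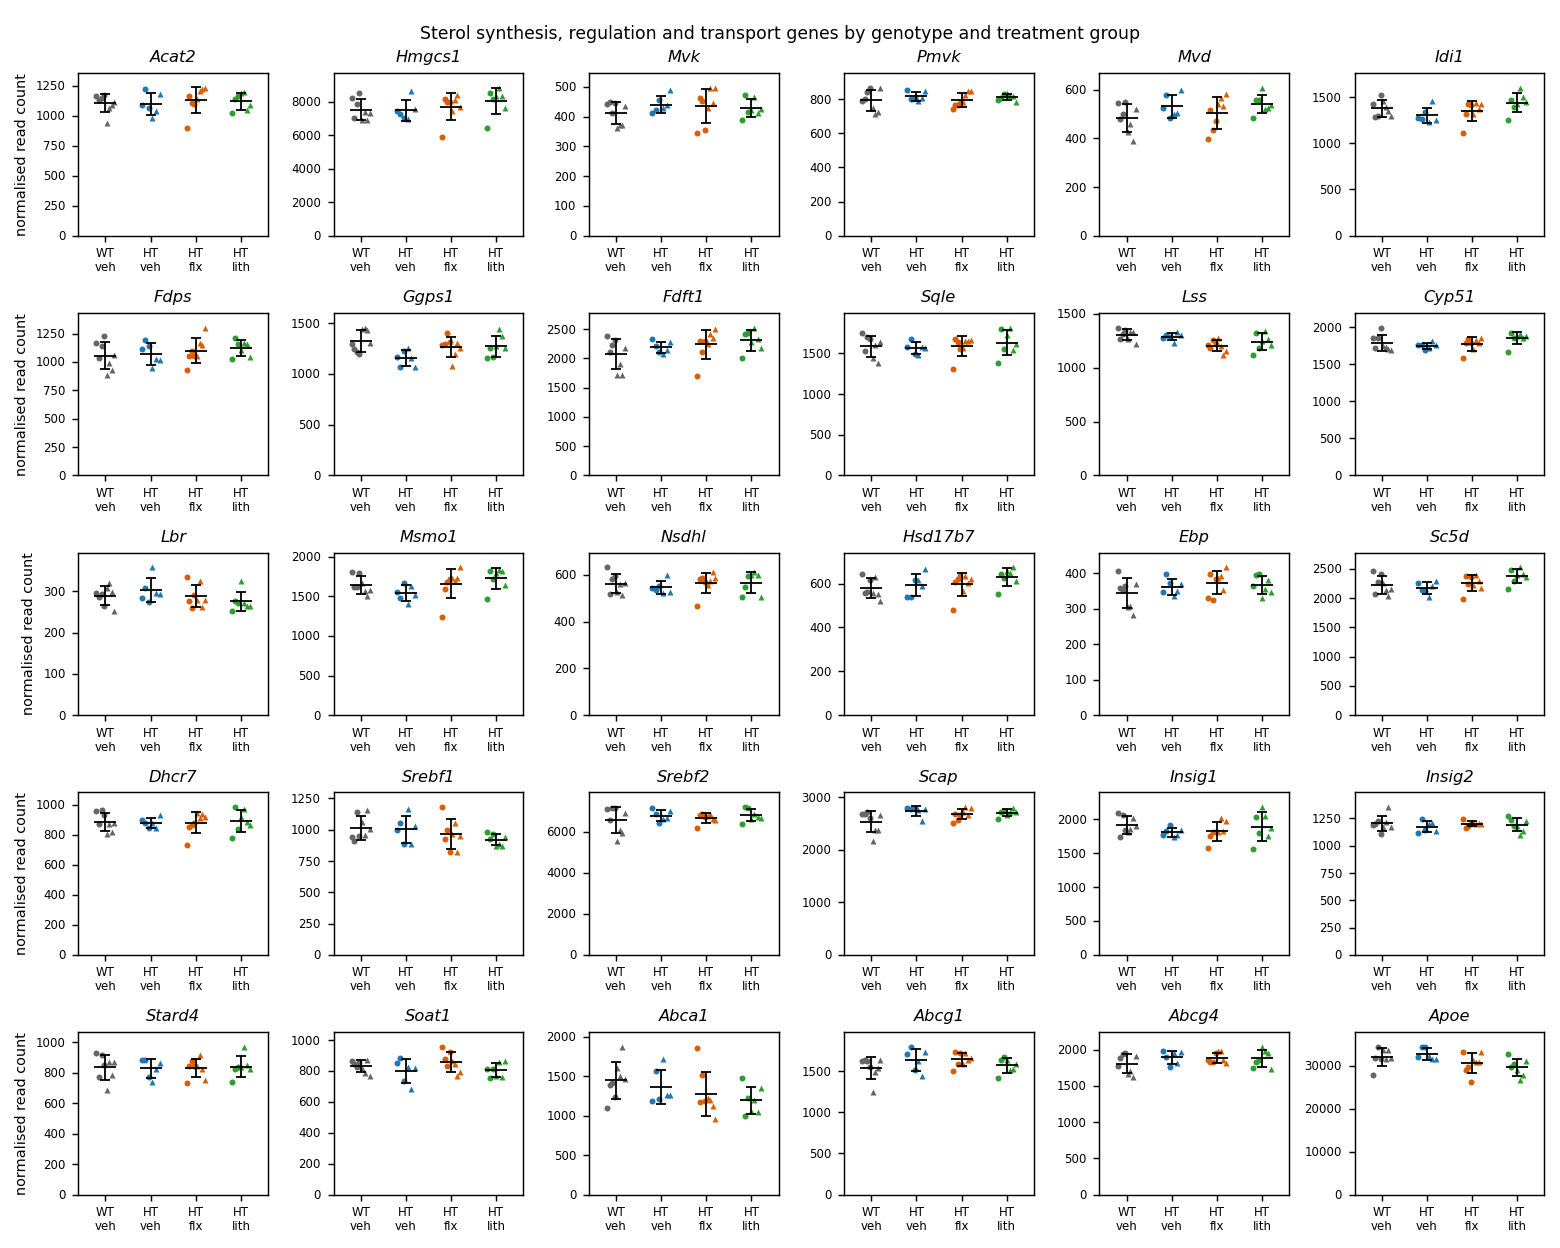
Normalised read count (linear axis from 0) of each of the 30 genes in each library of the 4 groups, circles for females and triangles for males, with the mean and SD in black. The groups overlap for every gene, and a single HT fluoxetine female lies low in many of the synthesis panels.

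Group means of the normalised read count are given here in the order WT vehicle, HT vehicle, HT fluoxetine and HT lithium (mean ± SD, n = 8, 6, 8 and 7). In the mevalonate branch, Hmgcs1 read 7527 ± 618, 7484 ± 622, 7709 ± 786 and 8037 ± 794. Those of Acat2, which supplies acetoacetyl-CoA, were 1104 ± 75.9, 1097 ± 92.3, 1134 ± 108 and 1122 ± 70.2, and those of Mvk 411 ± 37.3, 441 ± 27.8, 435 ± 57.5 and 429 ± 30.7. Idi1 read 1378 ± 87.4, 1303 ± 84.6, 1353 ± 107 and 1441 ± 107, and the means of Pmvk lay between 792 and 817.

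In the sterol branch and the same order, Sqle, the oxygen-dependent epoxidase at which squalene becomes committed to sterols, read 1591 ± 131, 1564 ± 72.9, 1593 ± 123 and 1635 ± 155. Cyp51 read 1789 ± 105, 1747 ± 41.3, 1775 ± 89.1 and 1854 ± 84.7 and Nsdhl 562 ± 41.2, 547 ± 28.1, 567 ± 43.4 and 567.5 ± 46.6. Hsd17b7, the ketoreductase of the demethylation complex, read 580 ± 44.0, 594 ± 49.8, 597 ± 51.7 and 630 ± 40.0, and Dhcr7, the last reductase before cholesterol, 886 ± 59.8, 878 ± 32.8, 880 ± 67.8 and 891 ± 73.1.

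Of the regulators, Srebf2 read 6562 ± 632, 6795 ± 270, 6681 ± 227 and 6813 ± 293 and Srebf1 1015 ± 94.8, 1003 ± 107, 964 ± 119 and 921 ± 46.6. Insig1 read 1917 ± 128, 1811 ± 66.3, 1822 ± 134 and 1894 ± 211 and Insig2 1204 ± 71.3, 1175 ± 48.8, 1203 ± 24.2 and 1192 ± 60.8. Stard4 read 837 ± 82.2, 828.8 ± 59.4, 830 ± 59.7 and 840 ± 68.7, and the exporters Abcg1 and Abcg4 read 1541 ± 132, 1637 ± 133, 1644 ± 82.4 and 1570 ± 91.1 and 1805 ± 134, 1897 ± 89.6, 1887 ± 71.6 and 1877 ± 117. Over all 30 genes, the highest and the lowest group mean differed by less than the gene's largest SD in 22. Among the other 8, Idi1, Cyp51, Msmo1 and Sc5d were lowest in HT vehicle and highest in HT lithium, and Ggps1 was lowest in HT vehicle and highest in WT vehicle. Lss was lowest in HT fluoxetine, Scap in WT vehicle and Apoe in HT lithium. For Ggps1, Lss, Scap, Msmo1, Sc5d and Apoe the lowest, median and highest counts are given with the comparisons, and for Idi1 and Cyp51 the fold changes.

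Promoter sequence of the 30 genes was also examined. As described further on, the synthesis genes varied together between libraries, while Abca1 and Apoe varied the opposite way. The 250 bases before the RefSeq start site (build GRCm38.p6) were found for 24 of the 30 genes and not for Fdps, Fdft1, Sqle, Stard4, Abcg1 and Abcg4. Both strands were searched for CCAAT, the box bound by NF-Y, for GGGCGG, bound by Sp1, and for TCACNCCAC, a sterol regulatory element as read by SREBP. None of these motifs overlapped another in the sequences printed here. Matches are in capitals, and a match on the other strand appears as its reverse complement. Hmgcs1, Nsdhl (a sterol C4 decarboxylase of the demethylation complex) and Mvd (mevalonate diphosphate decarboxylase) are shown as synthesis genes, and Abca1 for contrast, each 5′ to 3′ on the strand of its gene.
Hmgcs1, chr13:119690101-119690350, plus strand: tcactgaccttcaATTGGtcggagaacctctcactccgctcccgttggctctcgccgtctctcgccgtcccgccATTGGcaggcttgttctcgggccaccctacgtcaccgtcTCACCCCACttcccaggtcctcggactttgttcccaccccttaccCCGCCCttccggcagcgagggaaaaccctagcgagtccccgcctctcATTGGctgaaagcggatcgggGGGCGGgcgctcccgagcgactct
Nsdhl, chrX:72918271-72918520, plus strand: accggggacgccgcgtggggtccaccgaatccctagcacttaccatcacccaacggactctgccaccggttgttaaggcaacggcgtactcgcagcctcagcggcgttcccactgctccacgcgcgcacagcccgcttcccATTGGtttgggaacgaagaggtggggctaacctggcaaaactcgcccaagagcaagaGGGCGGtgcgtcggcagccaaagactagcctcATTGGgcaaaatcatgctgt
Mvd, chr8:122443423-122443672, minus strand: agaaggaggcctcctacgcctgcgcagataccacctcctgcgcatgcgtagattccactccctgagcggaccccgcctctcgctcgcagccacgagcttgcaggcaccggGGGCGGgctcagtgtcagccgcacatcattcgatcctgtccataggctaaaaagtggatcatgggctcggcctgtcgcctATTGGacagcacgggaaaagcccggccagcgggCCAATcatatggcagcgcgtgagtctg
Abca1, chr4:53159896-53160145, minus strand: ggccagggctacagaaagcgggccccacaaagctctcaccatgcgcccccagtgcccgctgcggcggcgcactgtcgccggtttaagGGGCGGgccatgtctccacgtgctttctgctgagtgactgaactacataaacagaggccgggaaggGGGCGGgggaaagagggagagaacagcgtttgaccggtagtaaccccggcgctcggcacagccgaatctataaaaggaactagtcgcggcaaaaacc

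Hmgcs1 held 1 TCACNCCAC, 3 CCAAT and 2 GGGCGG matches, Nsdhl and Mvd each held 2 CCAAT and 1 GGGCGG, and Abca1 held 2 GGGCGG and no CCAAT. Over the 16 synthesis genes with an entry, 87.5% had a CCAAT box and 62.5% had 2 or more, beside 36% and 12.8% of the 12630 tested genes with an entry. Of the 8 other members with an entry, 62.5% had a CCAAT box and 12.5% had 2 or more. Among genes that varied opposite to the other synthesis genes, Insig2 held 3, Lbr (a synthesis gene) held 2, and Srebf1 and Soat1 held 1 each. Abca1 and Apoe, which also varied the opposite way, held none. The synthesis genes Acat2 and Dhcr7 also held none. A link between the motifs and the shared variation was not tested. GGGCGG was found in 87.5% of the synthesis promoters and 56.3% of all. The sterol element was found only in Hmgcs1 among the 24 genes (4.17%), beside 0.942% of all promoters. These are matches of letters in a fixed window and do not show binding.

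The first question was whether the K228E allele altered the pathway in mice given vehicle. None of the 30 genes passed limma's test in HT vehicle against WT vehicle (Benjamini-Hochberg adjusted p under 0.05 over 17881 genes), where 0.207% of all genes passed. At an unadjusted p under 0.05 there were 3 genes, or 10% of the 30, beside 12.3% of all genes. The median log2 fold change of the 30 was -0.010, with 13 above 0 and 17 below, and the median of all genes was 0.00011. Every 95% confidence interval of the 30 lay within 1.25-fold of no change. In no gene of the 30 did HT vehicle and WT vehicle libraries fail to overlap, against 0.336% of all genes.

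Ggps1 (chr13:14050659-14063488, minus strand), which makes geranylgeranyl diphosphate for protein prenylation and stands on a side branch of the pathway, came nearest. Its lowest, median and highest counts were 1199, 1300 and 1456 in WT vehicle and 1068, 1165 and 1251 in HT vehicle. The difference was -0.19 ± 0.046 (log2 fold change ± SE, 95% interval -0.29 to -0.098, adjusted p = 0.0670, limma). High WT values came from WT males 1, 2 and 3, at 1442, 1456 and 1433, while the other 5 WT libraries lay between 1199 and 1302 and overlapped HT vehicle. DESeq2 on the recovered reads gave an adjusted p of 0.0157, and a fit without the 3 libraries of lowest cortical excitatory neuron mean, chosen after the data were seen, gave a difference of -0.18 with an adjusted p of 0.266. Without WT vehicle male 4 the adjusted p was 0.0328. Ggps1 shares 257 exon bases (5.44% of its own) with Arid4b, a chromatin protein gene, which read 1528 ± 89.5 in WT vehicle and 1506 ± 27.0 in HT vehicle.

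Scap (chr9:110333288-110384950, plus strand), the SREBP escort, was the next. WT vehicle libraries read 2166, 2633 and 2726 (lowest, median, highest) and HT vehicle libraries 2555, 2769 and 2793, a difference of 0.12 ± 0.034 (adjusted p = 0.130). The same WT males 1, 2 and 3 were low here, at 2166, 2367 and 2375, and the other 5, from 2597 to 2726, overlapped HT vehicle only through HT vehicle male 2 at 2555. Without HT vehicle male 2 the difference was 0.13 (adjusted p = 0.0625). Without WT vehicle male 4 the difference was 0.14 (adjusted p = 0.0214), and without the 3 libraries of lowest cortical excitatory neuron mean it was 0.079 (adjusted p = 0.429). Of the 10 cortical excitatory markers 8 had a difference above 0 (median 0.15), and the 1 that passed was Tbr1 itself. In all other marker lists most genes had a difference below 0, with medians of -0.13 (astrocyte, 1 of 12 passing each way), -0.15 (myelin), -0.13 (oligodendrocyte precursor), -0.13 (microglia), -0.15 (endothelial and mural), -0.20 (meninges), -0.18 (choroid plexus), -0.23 (striatum) and -0.068 (olfactory areas). Their part in the result was not tested beyond those fits. Mvd stood at 0.14 ± 0.067 (adjusted p = 0.387), and the sterol exporters Abcg4 and Abcg1 at 0.073 ± 0.041 (adjusted p = 0.493) and 0.088 ± 0.055 (adjusted p = 0.550).

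**Figure D2:**
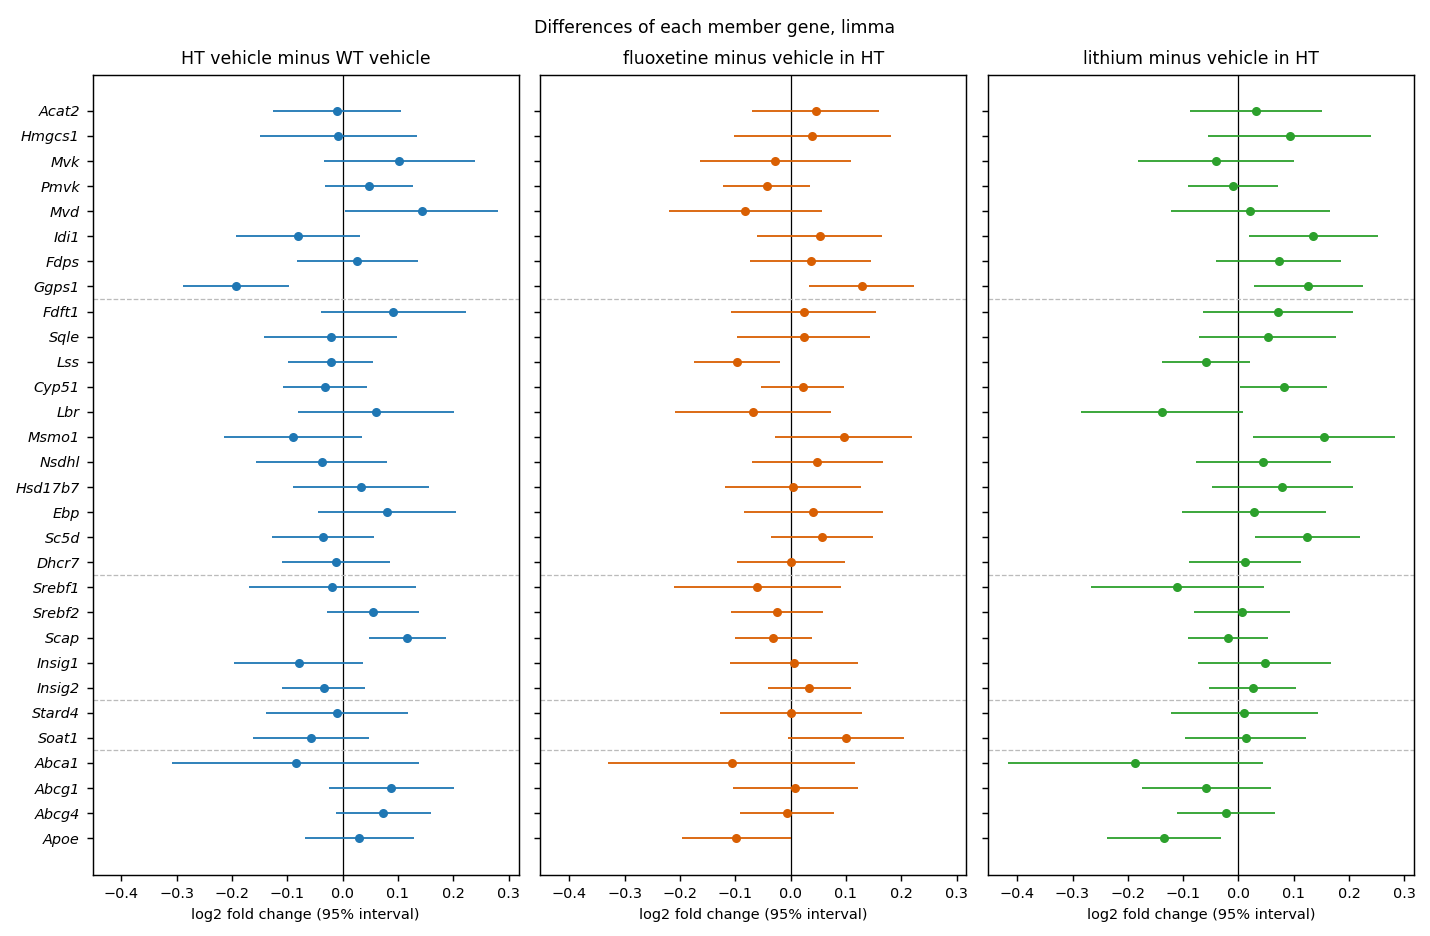
Log2 fold change of each of the 30 genes with its 95% confidence interval from limma (horizontal axis) for HT vehicle minus WT vehicle, fluoxetine minus vehicle in HT and lithium minus vehicle in HT. Dashed lines part the mevalonate, sterol, regulator, storage and efflux genes, and the points lie between -0.19 and 0.15 in all 3 panels.

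Fluoxetine was then set against vehicle in HT mice. No gene of the 30 passed, and 0% of all genes did. An unadjusted p under 0.05 was reached by 2 genes (6.67%), beside 7.81% of all genes. The median of the 30 was 0.0073 (19 above 0), and all intervals lay within 1.5-fold, 29 of them within 1.25-fold. None of the 30 separated the groups, as 0.0615% of all genes did. None of the marker genes passed here, but differences of 3 lists lay to one side. Those of the striatal markers were positive in 12 of 12 genes (median 0.81) and those of the olfactory markers in 0 of 9 (median -0.49). Markers of myelin, the membrane that holds most brain cholesterol, had positive differences in 15 of 15 genes (median 0.22), with means of 0.058 ± 0.35 with fluoxetine (SD, n = 8) and -0.14 ± 0.36 with vehicle (n = 6). With the myelin mean as a covariate the median of the 30 was -0.024, and with the striatal and olfactory means it was -0.025.

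In the mevalonate branch, Ggps1 read 1081, 1290 and 1408 with fluoxetine against 1068, 1165 and 1251 with vehicle, a difference of 0.13 ± 0.046 (adjusted p = 0.508). This comparison shares the HT vehicle libraries with the genotype comparison, where they were low. Against WT vehicle, HT fluoxetine stood at -0.064 ± 0.043. Lss of the sterol branch read 1123, 1210 and 1278 with fluoxetine and 1230, 1294 and 1328 with vehicle, a difference of -0.097 ± 0.038 (adjusted p = 0.549). Its groups overlapped, with most fluoxetine libraries below most vehicle libraries. Msmo1, the methyl sterol oxidase, stood at 0.096 ± 0.060 (adjusted p = 0.713) and at 0.15 without HT fluoxetine female 1, whose count of 1246 was the lowest of all 29. Soat1 stood at 0.10 ± 0.051 and Apoe at -0.098 ± 0.048 (adjusted p = 0.636 for both).

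Lithium against vehicle in HT mice gave the same count. No gene of the 30 and 0% of all genes passed, with 6 genes (20%) at an unadjusted p under 0.05, beside 11.4% of all genes. Of the 19 synthesis genes 15 had a difference above 0, among them 6 of 8 mevalonate and 9 of 11 sterol genes, and all 4 efflux genes had one below 0. Synthesis genes vary together between libraries, as described further on, so these counts are not independent. The median of the 30 was 0.023, that of the synthesis genes 0.053 and that of the efflux genes -0.096, where 48.4% of all genes lay above 0 and their median was -0.0037. Every interval lay within 1.5-fold, and 29 of 30 within 1.25-fold. None of the 30 separated the groups, as 0.542% of all genes did.

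Msmo1 read 1468, 1793 and 1831 with lithium and 1407, 1540 and 1669 with vehicle, a difference of 0.15 ± 0.062 (adjusted p = 0.366). Most lithium libraries lay above the vehicle range, but HT lithium female 1, at 1468, was within it. Sc5d, the sterol C5 desaturase, read 2163, 2388 and 2525 and 2022, 2167 and 2290, a difference of 0.12 ± 0.046 (adjusted p = 0.333), and HT lithium female 1 was again the low library. Idi1, the isopentenyl diphosphate isomerase, stood at 0.14 ± 0.057 (adjusted p = 0.382) and Ggps1 at 0.13 ± 0.048 (adjusted p = 0.348). As with fluoxetine, the HT vehicle libraries are shared with the genotype comparison, where Ggps1 was low in them. Against WT vehicle, Ggps1 in HT lithium stood at -0.067 ± 0.045. Apoe read 26793, 29672 and 32835 with lithium against 31545, 32070 and 34403 with vehicle, a difference of -0.13 ± 0.050 (adjusted p = 0.327), with overlapping groups. Abca1 read 1001, 1195 and 1483 and 1182, 1261 and 1717, a difference of -0.19 ± 0.11 (95% interval -0.42 to 0.045), and its interval was the widest of the 30.

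No marker gene passed in this comparison either. Differences of the myelin markers were positive in 15 of 15 genes (median 0.20), of the striatal markers in 10 of 12 (median 0.41) and of the olfactory markers in 0 of 9 (median -1.33), and the median of the 30 was -0.0098 with the myelin mean as a covariate. The cortical excitatory neuron mean was 0.12 ± 0.086 (SD, n = 7) in HT lithium and 0.0094 ± 0.10 (n = 6) in HT vehicle, and the olfactory mean was -0.89 ± 1.6 and 0.46 ± 0.67. With the cortical excitatory mean (leaving out Tbr1) as a covariate, a fit chosen after the data were seen, the median of the 30 genes for lithium against vehicle was -0.019. The differences of Msmo1, Sc5d and Apoe were then 0.092, 0.079 and -0.083, while that of Ggps1 was 0.12.

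Set directly against each other in HT mice, lithium and fluoxetine could not be told apart in these genes. None of the 30 passed, as 0% of all genes did, and none reached an unadjusted p under 0.05, as 3.5% of all genes did. All 30 intervals lay within 1.25-fold. The differences with the smallest p were those of Soat1 (-0.088 ± 0.049), Cyp51, the lanosterol demethylase (0.060 ± 0.035), Mvd (0.10 ± 0.065), Idi1 (0.083 ± 0.053) and Sc5d (0.068 ± 0.043), with an adjusted p of 0.985 for each. A p that misses the threshold does not show that both drugs act alike.

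Each drug group was also set against WT vehicle. With fluoxetine none of the 30 passed (0.19% of all genes did) and 3 had an unadjusted p under 0.05 (10%, beside 9.26% of all). Lss stood below WT at -0.12 ± 0.035 (adjusted p = 0.212), and Scap at 0.085 ± 0.031 (adjusted p = 0.359) and Ebp, the sterol isomerase, at 0.12 ± 0.056 (adjusted p = 0.522) stood above. With lithium none passed (1.9% of all genes did) and 6 had an unadjusted p under 0.05 (20%, beside 18.6% of all). Scap stood at 0.098 ± 0.033 (adjusted p = 0.112), Fdft1, squalene synthase, at 0.16 ± 0.061 (adjusted p = 0.158) and Abca1 at -0.27 ± 0.10 (adjusted p = 0.165).

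Fdft1 read 1719, 2145 and 2381 in WT vehicle and 1999, 2324 and 2523 in HT lithium, and Abca1 read 1102, 1444 and 1873 and 1001, 1195 and 1483. The lowest Fdft1 and the highest Abca1 counts in WT came from WT males 1 and 3, at 1719 and 1720 for Fdft1 and 1607 and 1873 for Abca1. Of the marker genes, 3 of 10 cortical excitatory ones (Tbr1 among them) passed above WT, beside 1.9% of all genes passing either way. Passing below WT were 2 of 12 astrocyte and 3 of 10 endothelial and mural markers. The cortical excitatory mean was -0.15 ± 0.16 (SD, n = 8) in WT vehicle and 0.12 ± 0.086 (n = 7) in HT lithium. A fit with that mean (leaving out Tbr1) as a covariate was chosen after the data were seen. It gave -0.015 for Fdft1 and 0.026 for Abca1, both of opposite sign. The mean differed between the groups compared, so this fit cannot separate marker mean and group. With library weights Fdft1 and Scap passed, at adjusted p = 0.0321 and 0.0236, and Scap also passed without WT vehicle male 4 (adjusted p = 0.0137). Fdft1 shares 774 exon bases (18.3%) with Ctsb, a lysosomal protease gene with 13762 normalised reads in WT vehicle, and whether reads were assigned by strand is not given in the sources used here. These comparisons share the WT vehicle libraries with each other and with the genotype comparison.

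Differences between the sexes were tested as the female minus the male difference. For fluoxetine none of the 30 passed, beside 0.106% of all genes, and 3 reached an unadjusted p under 0.05, beside 13.6% of all. Fdps (chr3:89093588-89101959, minus strand), which makes farnesyl diphosphate, came nearest. In HT vehicle it read 1110, 1195 and 1139 in females and 944, 1022 and 1013 in males. With fluoxetine it read 928, 1051, 1092 and 1052 in females and 1051, 1171, 1147 and 1302 in males. With vehicle the female counts lay above the male counts, and most fluoxetine females were below most fluoxetine males. How many of all genes separate the sexes in this way was not counted, and Fdps was named for its small p. The difference of differences was -0.39 ± 0.11 (adjusted p = 0.130, limma), -0.34 without HT fluoxetine female 1, and had an adjusted p of 0.0339 with DESeq2.

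Acat2, the cytosolic thiolase, stood at -0.25 ± 0.11 (adjusted p = 0.318) and Mvd at -0.28 ± 0.13 (adjusted p = 0.367) for the same difference, and without HT fluoxetine female 1 at -0.17 and -0.21. The median of the 30 moved from -0.078 to -0.021 without that library. For lithium none of the 30 passed, as 0% of all genes, and 0 reached an unadjusted p under 0.05, beside 2.92% of all. Fdps (-0.19 ± 0.11), Ggps1 (-0.15 ± 0.096) and Insig1 (-0.18 ± 0.12) had the smallest p, with an unadjusted p of 0.0945 for Fdps. These differences are less precise than those over both sexes, with 28 and 29 of the 30 intervals within 1.5-fold.

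The genotype difference between the sexes also called none of the 30 and 0% of all genes, and 1 gene reached an unadjusted p under 0.05, beside 5.6% of all. That gene was Srebf2, at -0.19 ± 0.081 (adjusted p = 0.847), followed by Mvk, mevalonate kinase, at -0.26 ± 0.13 and Abcg4 at -0.16 ± 0.083. All 11 sterol genes and 7 of 8 mevalonate genes had a negative difference, Ggps1 being the exception at 0.17, where 48.8% of all genes were positive. Because synthesis genes vary together, these counts are not independent. The mean of the 19 synthesis genes (log2, centred) was -0.10, -0.043, -0.13 and -0.026 in WT males and 0.097, -0.044, 0.018 and 0.080 in WT females. It lay between -0.064 and 0.016 in all HT vehicle libraries. No marker gene passed for the same difference, which was positive in 0 of 15 myelin markers (median -0.53), 0 of 12 striatal markers (median -0.93) and 9 of 9 olfactory markers (median 1.03). The median of the 30 was -0.089, -0.016 with the myelin mean as a covariate, and -0.020 with the striatal and olfactory means.

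EdgeR's quasi-likelihood test on the recovered reads called none of the 30 genes in any of the 9 comparisons. DESeq2 called none in 7 of them, the exceptions being Ggps1 for genotype and Fdps for the sex difference of fluoxetine. In those 2 comparisons DESeq2 called 212 and 198 of all genes, edgeR 29 and 20, and limma 37 and 19. For either drug against vehicle, lithium against fluoxetine, and the sex differences of lithium and genotype, edgeR called 0 of all genes.

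Between libraries of 1 group the synthesis genes varied together. Group means were subtracted from each gene and the remaining deviations correlated over the 29 libraries, which share depth scaling and dissection for all genes of a library. Among the 171 pairs of synthesis genes the median Pearson's r was 0.48, and 150 pairs were positive. The mean of the mevalonate genes followed that of the sterol genes with r = 0.89 (Spearman's rho 0.86), and with r = 0.81 after leaving out the 2 farthest libraries, HT fluoxetine female 1 and HT lithium female 1. Against the mean of the other synthesis genes r was 0.89 for Hmgcs1, 0.88 for Fdft1, 0.87 for Sqle, the squalene epoxidase, 0.83 for Fdps and 0.83 for Cyp51. All tested genes had a median r of -0.015 with the synthesis mean, with 5% below -0.58 and 5% above 0.60.

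A few synthesis genes stood outside. Ggps1, which leaves the sterol route, had r = 0.14, Lss 0.36, Pmvk 0.37 and Lbr -0.30. Among the regulators, Srebf2 (0.67) and Insig1 (0.68), itself an SREBP target, followed the synthesis genes, whereas Srebf1 (-0.47), the SREBP of fatty acid genes, and Insig2 (-0.50) varied the opposite way. Stard4, a sterol carrier, had r = 0.65 and Soat1 -0.34. Abca1 (-0.77) and Apoe (-0.69) were the most opposite of all 30, while Abcg1 (0.45) and Abcg4 (0.26) were not. The non-member genes with the highest r were Mapk9 (0.88) and Nfib (0.87), so values of this size were not particular to the pathway.

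**Figure D3:**
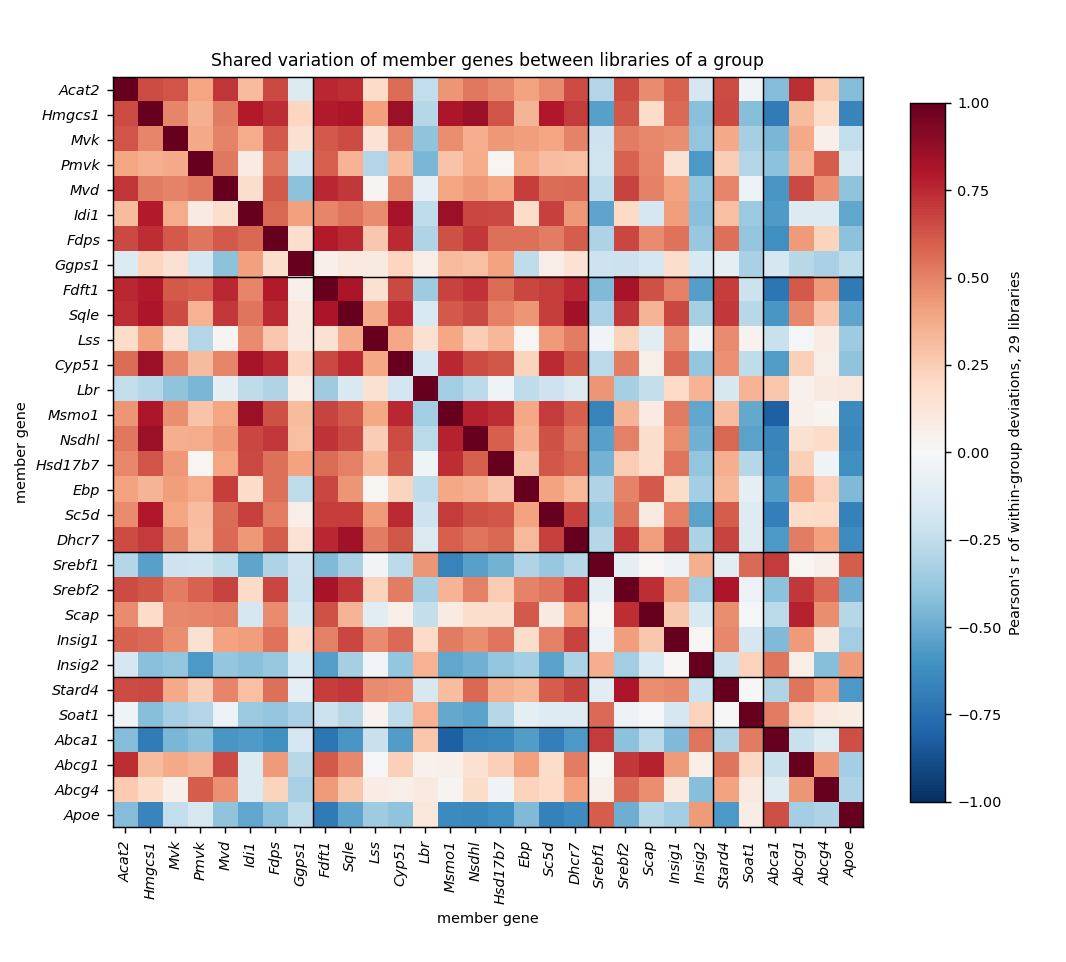
Pearson's r of within-group deviations over 29 libraries for each pair of the 30 genes, red for positive and blue for negative, with black lines between the mevalonate, sterol, regulator, storage and efflux genes. Most synthesis pairs are red (median 0.48), and the columns of Srebf1, Insig2, Abca1 and Apoe are mostly blue against them.

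One library carried part of this pattern. HT fluoxetine female 1 had the lowest count of all 29 for 12 of the 30 genes, all of them synthesis genes. Hmgcs1 was one, at 5905, where the other fluoxetine libraries began at 7436. Its Abca1 count of 1853 was the highest of the fluoxetine group. Without HT fluoxetine female 1 the median r among synthesis pairs was 0.36, and r was 0.82 for Hmgcs1, 0.82 for Fdps, -0.70 for Abca1 and -0.56 for Apoe. Srebf1 then stood at -0.25 and Insig2 at -0.48. Leaving out any other library gave a median between 0.40 and 0.51.

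Markers of tissue makeup varied with the pathway. The synthesis mean had r = 0.73 with the cortical excitatory neuron mean, 0.57 with the myelin mean, -0.65 with the astrocyte mean and -0.56 with the olfactory mean, and 0.59, 0.44, -0.65 and -0.44 without the 2 libraries farthest in each marker. Abca1 had r = 0.80 with the olfactory mean and -0.77 with the cortical excitatory mean, and Apoe 0.66 and -0.72. Summed counts of the 10 cortical excitatory markers ranged from 122079 to 171804 over the libraries, and those of the 9 olfactory markers from 802 to 17462.

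With the cortical excitatory, astrocyte, myelin and olfactory means removed from every gene, a step chosen after the data were seen, the median r among the 171 synthesis pairs was 0.30, and 129 pairs were positive. Hmgcs1 (0.82), Cyp51 (0.81), Fdps (0.78), Sqle (0.74) and Idi1 (0.73) then had the highest r with the other synthesis genes, and Insig1 stood at 0.68, but Srebf2 at 0.24. Lss (0.60) and Ggps1 (0.46) had higher values than before, while Scap (-0.23), Abcg1 (-0.19) and Abcg4 (-0.044) changed sign. Mvd (-0.089), Pmvk (-0.070) and Ebp (-0.26) changed sign as well. Abca1 was at -0.46, Apoe at -0.29, Insig2 at -0.23 and Srebf1 at -0.18.

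**Figure D4:**
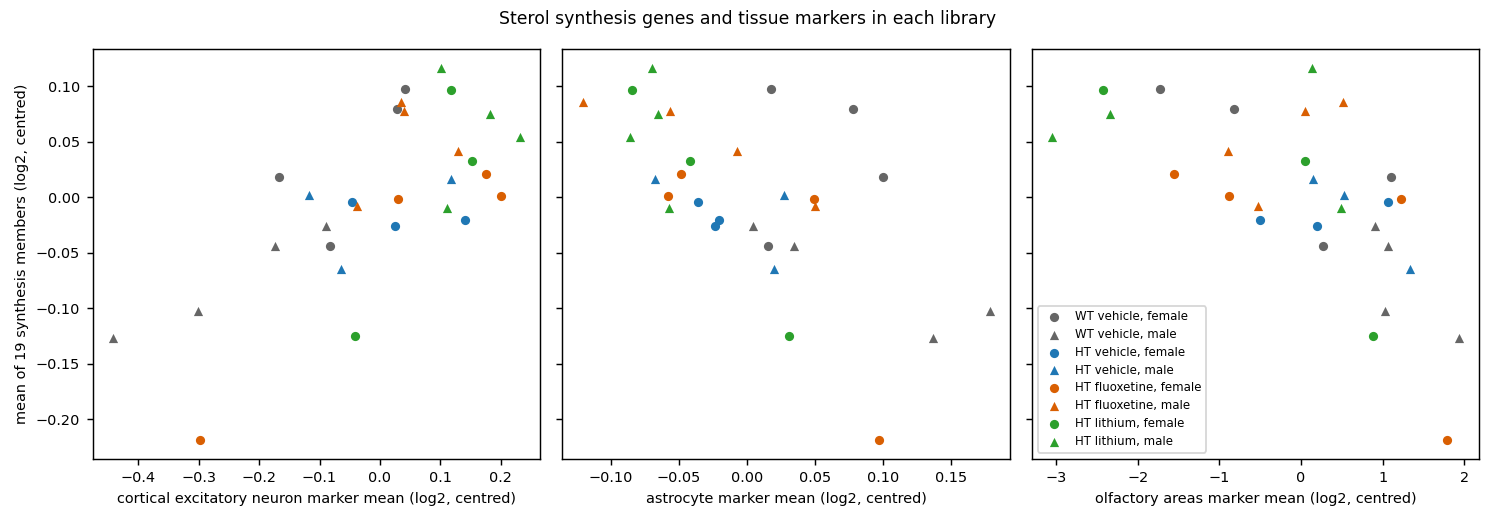
Mean of the 19 synthesis genes (vertical axis, log2 centred on all libraries) against the mean of the cortical excitatory neuron, astrocyte and olfactory markers (horizontal axes, log2 centred) in each of the 29 libraries, coloured by group with circles for females and triangles for males. HT fluoxetine female 1, lowest in synthesis genes at -0.22, lies at -0.30 for the excitatory and at 1.79 for the olfactory markers.

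Other genes of the pathway were read from lists of SREBP processing (12 genes), oxysterol formation and turnover (8 of 9 tested), LXR receptors and targets (10), and lipoproteins, receptors and sterol trafficking (17). None passed for genotype, for either drug against vehicle, or for the drugs against each other. In HT lithium against WT vehicle, where 1.9% of all genes passed, 1 of 17 trafficking genes did, Stard3, an endosomal sterol carrier, at 0.21 ± 0.036 (adjusted p = 0.00284).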

How the data were processed

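Bulk RNA was sequenced from prefrontal cortex in 29 libraries of 8 groups (genotype, treatment, sex). The deposited values are a signal per gene and library, read counts that the authors had scaled with a single factor for each library. This was read from the values, 100% of which are whole multiples (within 0.0001) of a step that differs by library. The submitters' processing notes list Salmon 0.11.2, R 3.6.0, DESeq2 1.19.11 and GRCm38, and do not say what each did. Per the labels' protocols the libraries were stranded and poly(A)-selected. The annotation release, strand setting and gene filter are not given in the sources used here. Of 18240 identifiers, 18227 matched a gene name. Recovered reads totalled 22.81 M to 31.71 M per library, which sets the counting precision.

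The 17881 genes that reached 10 in 3 or more libraries were tested with limma 3.58.1 in R 4.3.3 on log2(value + 1), with 1 mean per group, an intensity trend, 21 residual degrees of freedom, two-sided, Benjamini-Hochberg adjusted over all genes at 0.05. Fold changes are on that log2 scale and understate changes of low genes. For both sexes together, the female and the male difference were averaged. Errors are SE for fold changes and SD for levels. Lengths of merged exons came from a GRCm38 annotation, and promoters from RefSeq (GRCm38.p6). The test was checked on simulated data.

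The members and lists were chosen with earlier results of these data known. Some genes of the pathway outside the 30 are not reported here. Named were all genes past the threshold or else the 5 of smallest p for each drug, genotype and the drugs against each other, and 3 elsewhere. Others were named for levels, correlations or sequence, after their values were seen. The alternatives were other pseudocounts (0.5, 10), filters (none, 50), quantile and median-ratio scaling, no trend, library weights, only the groups compared, additive sex, the replicate number as a block, marker covariates, libraries left out, edgeR 4.0.16 and DESeq2 1.42.0 on recovered reads, and a threshold of 0.1.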

Additional observations from a re-analysis of the deposited data

Results flagged for a closer look

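In 17 of the 120 gene and group combinations the highest or lowest library stood apart from the rest by Dixon's criterion, where chance gives about 1 in 20. Of these, 9 were low values of HT fluoxetine female 1: Acat2 at 896.8, Hmgcs1 at 5905, Idi1 at 1114, Sqle at 1312, Msmo1 at 1246, Nsdhl at 467.004, Hsd17b7 at 481, Dhcr7 at 734 and Srebf2 at 6177 normalised reads. This library also had the lowest Tbr1 count of the HT libraries, 2858, and an olfactory marker mean 1.59 (log2) above the median of all libraries, and the part of either in these values was not tested. WT vehicle male 1 was low for Acat2 at 939 and for Abcg1 at 1242. HT vehicle male 2 was high for Hmgcs1 at 8664 and Nsdhl at 599.997 and low for Scap at 2555. Cyp51 was low in HT lithium female 1 at 1671, Lbr was high in HT lithium male 1 at 326, and Apoe was low in WT vehicle female 1 at 27922.5.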

How the results depend on the processing

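The count of 30 genes called stayed at 0 under every alternative run for fluoxetine and lithium against vehicle, lithium against fluoxetine, HT fluoxetine against WT vehicle, and the sex differences of lithium and genotype. For HT vehicle against WT vehicle it was 1 (Ggps1) with library weights, with striatal and olfactory covariates, with DESeq2 and at a threshold of 0.1, and from 0 to 2 with each library left out (2, Ggps1 and Scap, without WT vehicle male 4). For HT lithium against WT vehicle it was 2 (Fdft1 and Scap) with library weights, and from 0 to 1 with each library left out (1, Scap, without WT vehicle male 4). For the sex difference of fluoxetine it was 1 (Fdps) with DESeq2. The median of the 30 for the sex difference of genotype moved from -0.089 to -0.020 with striatal and olfactory covariates and to -0.016 with the myelin covariate. Idi1 for lithium against fluoxetine turned to -0.018 without the 11 libraries of high striatal or olfactory markers. In HT lithium against WT vehicle, Fdft1 turned to -0.015 and Abca1 to 0.026 with the cortical excitatory covariate, chosen after the data were seen. The cause of these changes was not tested. With a replicate block 0 of the 30 genes were called in every comparison, and the numbers were those of the titles, which for HT vehicle females (1, 2 and 3) differ from the library names (2, 3 and 4). Same-numbered libraries were not shown to be paired, the correlations of their deviations from group means running from -0.26 to 0.31. Over all genes, limma, edgeR and DESeq2 called 37, 29 and 212 genes for genotype, 34, 32 and 96 for HT fluoxetine against WT vehicle, 340, 304 and 590 for HT lithium against WT vehicle, and 19, 20 and 198 for the sex difference of fluoxetine. For fluoxetine, lithium and lithium against fluoxetine, limma and edgeR called 0 genes and DESeq2 3, 32 and 2, and for the sex differences of lithium and genotype DESeq2 called 0 and 1. The additive sex fit gives no sex differences and so has no value there. With 22.81 M to 31.71 M reads per library over the genes of the table and 6 to 8 libraries a group, 95% intervals were limited in width. For comparisons over both sexes all lay within 1.5-fold of no change.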

Other observations

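Fatty acid synthesis and desaturation, which shares acetyl-CoA and SREBP control with the sterol genes, was read from a list of 13 genes. None passed for genotype or for either drug against vehicle. In HT lithium against WT vehicle 2 of 13 passed limma's test, beside 1.9% of all genes. Differences of the list were positive in 6 of 13 genes, with a median of -0.011. Those passing were Aacs, which makes acetoacetyl-CoA from ketone bodies, at 0.21 ± 0.048 (log2 fold change ± SE, adjusted p = 0.0235), and the elongase Elovl6 at 0.17 ± 0.045 (adjusted p = 0.0450). Aacs read 1405 ± 138 (SD, n = 8) in WT vehicle, 1593 ± 117 (n = 6) in HT vehicle and 1622 ± 83.2 (n = 7) in HT lithium, and stood at 0.18 ± 0.050 (adjusted p = 0.108) for genotype alone. Of 11 genes of prenyl transfer, ubiquinone and dolichol synthesis, which use the products of Fdps and Ggps1, none passed for genotype or for either drug against vehicle.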
